A study of Mus musculus with 14 samples.

Results

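The GADD45 family was read in 10 RNA libraries of mouse embryo fibroblasts (MEFs), primary connective-tissue cells grown from embryos. Its members were taken by gene symbol, Gadd45a, Gadd45b and Gadd45g, which are 3 of the 20207 genes listed in every library. The libraries came from p53-/- cells given doxorubicin (2 libraries), untreated p53-/- cells (2), wild-type cells given doxorubicin (3) and untreated wild-type cells (3), all of strain 129/Sv. Doxorubicin, a topoisomerase II poison that breaks DNA, was given at 0.2 µg/ml for 6 h, and p53-/- cells are called p53-null below. RNA was poly(A)-selected and sequenced by a 3' protocol. The labels number the replicates without saying whether each was a separate embryo or culture, so every p-value rests on differences among libraries that may be only technical repeats.

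GADD45 proteins are small stress-induced proteins without known enzymatic activity that work by binding others. Their reported partners include PCNA and the cell-cycle inhibitor p21 at sites of replication and repair, the CDK1 and cyclin B kinase that drives entry into mitosis, and MAP3K4, the kinase at the head of a p38 and JNK stress cascade. Gadd45a was isolated as a gene induced by DNA damage and is a textbook p53 target, known for a p53 site inside the gene. Gadd45b was isolated as a gene of myeloid differentiation and is known to be raised by NF-kB and TGF-beta signalling, and Gadd45g as a cytokine-induced gene.

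A level below is a CPM value, a gene's reads scaled to a library of 1000000 reads with scaling between libraries, and a change is a log2 fold of CPM plus 0.5 with its standard error (SE). Totals of reads over listed genes ran from 18099505 to 25970157 in p53-null libraries and from 9768157 to 11770448 in wild-type libraries, so depth went with genotype and its part in the comparisons between genotypes was not tested. The 12 fibroblast markers were all detected in every library, with summed levels of 4906 to 6212 CPM in p53-null cells and 6794 to 10426 CPM in wild-type cells. Single markers went both ways. In untreated cells S100a4 averaged 538 CPM in p53-null and 3474 CPM in wild type, while Fn1 averaged 696 and 187 CPM. Summed levels of 13 macrophage markers were 80.8 to 120 CPM in p53-null and 47.0 to 558 CPM in wild-type libraries, and those of endothelial markers were at most 4.40 CPM. Epithelial markers summed to 14.8 to 37.4 CPM in p53-null and 6.48 to 25.6 CPM in wild-type libraries, skeletal muscle markers to 60.0 to 138 CPM in p53-null and 99.2 to 319 CPM in wild-type libraries, and neural markers to 171 to 232 CPM in p53-null and 179 to 282 CPM in wild-type libraries. In untreated cells 4 of the 12 fibroblast markers were higher in p53-null than in wild type (Fn1, Pdgfra, Col3a1 and Col1a2) and 1 lower (S100a4). Their median log2 fold was 0.32, beside 0.09 for all genes. Of 10 tested macrophage markers 0 were higher and 2 lower (Fcgr3 and Tyrobp). Of the other marker genes Kdr (endothelial), Myf5 (muscle) and Sox2 (neural) were higher and Sox10 (neural) lower. Of all genes 20.4% were higher and 12.8% lower there. The part of the cells that these genes mark in the comparisons between genotypes was not tested. The p53 target gene Cdkn1a, encoding p21, went with both labels. Its level averaged 49.1 CPM in treated and 30.4 CPM in untreated p53-null cells, and 4537 CPM in treated and 686 CPM in untreated wild-type cells. Reads of Trp53 were present in both genotypes (71.9 ± 3.25 CPM in untreated p53-null and 23.2 ± 2.73 CPM in untreated wild-type cells, SD, n = 2 and 3), and 3' reads check nothing about a deletion elsewhere in that gene.

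The 3 promoters are shown because the members did not move together, and they let the reader compare the sequence in front of each gene. Each line gives the 250 bases before the RefSeq start, 5′ to 3′ on the gene's own strand, from RefSeq on build GRCm38.p6. Capitals mark the octamer (ATGCAAAT), the CCAAT box (CCAAT), the TATA box (TATAAA) and the E-box (CACGTG), each searched on both strands.
Gadd45a, chr6:67037408-67037657, minus strand: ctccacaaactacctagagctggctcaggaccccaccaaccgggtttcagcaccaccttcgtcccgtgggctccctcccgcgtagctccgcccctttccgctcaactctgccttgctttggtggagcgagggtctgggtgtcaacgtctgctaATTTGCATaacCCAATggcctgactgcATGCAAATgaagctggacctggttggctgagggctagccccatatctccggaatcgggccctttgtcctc
Gadd45b, chr10:80929841-80930090, plus strand: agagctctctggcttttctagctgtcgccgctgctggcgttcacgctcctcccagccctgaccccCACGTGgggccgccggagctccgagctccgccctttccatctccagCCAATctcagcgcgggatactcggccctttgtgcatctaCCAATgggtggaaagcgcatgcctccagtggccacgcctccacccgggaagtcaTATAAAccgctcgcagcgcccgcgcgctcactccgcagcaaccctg
Gadd45g, chr13:51846425-51846674, plus strand: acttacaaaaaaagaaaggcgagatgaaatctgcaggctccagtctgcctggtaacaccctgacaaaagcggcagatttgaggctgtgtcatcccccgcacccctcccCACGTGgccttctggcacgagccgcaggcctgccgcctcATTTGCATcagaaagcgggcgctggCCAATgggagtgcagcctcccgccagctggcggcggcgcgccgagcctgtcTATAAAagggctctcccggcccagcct

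The octamer stood 2 times in the Gadd45a window and 1 time in the Gadd45g window, and 1.62% of 32536 mouse promoter windows of the same length hold it. The TATA box and the E-box each stood 1 time in the Gadd45b and in the Gadd45g window, against 12.3% and 6.04% of all windows. CCAAT was present in front of all 3 genes and in 33.8% of all windows. In the Gadd45g window the octamer overlapped a match to the C/EBP-ATF element (TGATGNAA), which 3.4% of all windows hold. No full p53 response element, searched by its published consensus with up to 13 spacer bases, was in these 3 windows, and 0.0645% of all windows hold one. A single p53 decamer, a part of that element, stood 1 time in the Gadd45a window and in neither of the others, and 7.12% of all windows hold one. These are matches of letters only, and the motifs were chosen with the sequences in view. The p53 binding sites of the series are on build mm9 and were not assigned to these genes, so p53 binding at the family was not analysed here.

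Gadd45a, the classical p53 target, had few reads and was higher in untreated p53-null than in untreated wild-type cells. Its level was 5.14 and 5.23 CPM (107 and 119 reads) in untreated p53-null libraries 1 and 2, against 2.14, 1.44 and 1.12 CPM (18, 16 and 10 reads) in untreated wild-type libraries 1, 2 and 3. Both p53-null libraries lay above all wild-type ones. The log2 fold of p53-null over wild type was 1.49 (SE 0.51, limma-trend adjusted p = 0.0468). Summed over the libraries, the p53-null and wild-type groups held 226 reads against 44, a depth-scaled ratio of 3.35 with an exact 95% interval of 2.42 to 4.74 that covers counting error only. In bulk RNA a change in the cells present and a change of RNA per cell cannot be told apart. This call was at the threshold. The labels do not say whether a replicate number matches between genotypes. With the number as a block shared by the genotypes the call was lost (log2 fold 1.14, adjusted p = 0.054). It was also lost without untreated p53-null library 1 (adjusted p = 0.174) or 2 (0.177), treated p53-null library 1 (0.0612) or 2 (0.0579), and untreated wild-type library 2 (0.102) or 3 (0.128), with log2 folds of 1.33 to 1.53.

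Doxorubicin gave no call for Gadd45a in either genotype. Its level was 3.18 and 4.56 CPM (84 and 145 reads) in treated p53-null libraries 1 and 2, each below the untreated library of the same number. The p53-null log2 fold was -0.40 (SE 0.56, adjusted p = 0.819). Treated wild-type libraries 1, 2 and 3 held 4.30, 2.51 and 0.720 CPM (46, 27 and 7 reads), the first and the second above and the third below the untreated library of its number. Library 1 was 2.01 times its untreated partner with a counting interval of 1.14 to 3.67, while library 3 stood at 0.641 with an interval of 0.207 to 1.87. The wild-type log2 fold was 0.36 (SE 0.45, 95% confidence interval -0.65 to 1.37, adjusted p = 0.650), and without treated library 1 it was -0.08. In treated cells the fold of p53-null over wild type was 0.73 (SE 0.51, adjusted p = 0.382) and the libraries overlapped. Reads summed over libraries, treated against untreated, were 229 against 226 in p53-null and 80 against 44 in wild-type cells. The depth-scaled ratios were 0.759 (exact 95% interval 0.629 to 0.916) and 1.66 (1.13 to 2.45). Between treated genotypes the ratio of p53-null to wild type was 1.53 (1.18 to 2.00). These intervals cover counting error only and leave out the spread among libraries. RefSeq places a long noncoding RNA, E230016M11Rik, over part of Gadd45a, and without strand reads of these overlapping genes cannot be told apart.

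Gadd45b was higher in treated p53-null than in treated wild-type cells, and its doxorubicin response had opposite signs in the genotypes without passing in either. Its level was 197 and 310 CPM (5191 and 9843 reads) in treated p53-null libraries 1 and 2, against 115 and 139 CPM in untreated p53-null libraries. Each treated library was above both untreated ones, at 1.72 and 2.23 times the library of the same number. The log2 fold was 0.96 (SE 0.38, 95% confidence interval 0.11 to 1.82), which did not pass over all genes (adjusted p = 0.407). In wild type, treated libraries 1, 2 and 3 held 123, 81.5 and 84.6 CPM and untreated ones 205, 103 and 98.7 CPM. Every treated wild-type library was below the untreated library of its number, at 0.601, 0.789 and 0.857 times its level, although the groups overlapped. The wild-type log2 fold was -0.43 (SE 0.31, adjusted p = 0.412), and without untreated library 1 it was -0.07.

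The p53-null response of Gadd45b minus its wild-type response was 1.39 (SE 0.49, 95% confidence interval 0.30 to 2.49), with an unadjusted p of 0.0179 from limma-trend. It did not pass over all genes (adjusted p = 0.157). With the replicate number as a block within genotype the same difference passed (adjusted p = 0.0232). That fit pairs treated and untreated libraries by number in both genotypes, with 3 numbers in wild type and 2 in p53-null cells. In treated cells Gadd45b was higher in p53-null than in wild type, by a log2 fold of 1.38 (SE 0.35, limma-trend adjusted p = 0.0298). Both p53-null libraries, at 197 and 310 CPM, lay above the 3 wild-type ones, at 81.5 to 123 CPM. This call was lost without treated p53-null library 2 (log2 fold 1.11, adjusted p = 0.255), treated wild-type library 2 (1.31, 0.0504) and treated wild-type library 3 (1.38, 0.0629). In untreated cells the 2 p53-null libraries fell inside the wild-type range of 98.7 to 205 CPM. The log2 fold there was -0.02 (SE 0.35, 95% confidence interval -0.79 to 0.76), and its sign was positive with library size or upper quartile scaling and without untreated wild-type library 1 (0.29), treated wild-type library 3 (0.02), untreated p53-null library 1 (0.13) or treated p53-null library 2 (0.03).

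**Figure D1:**
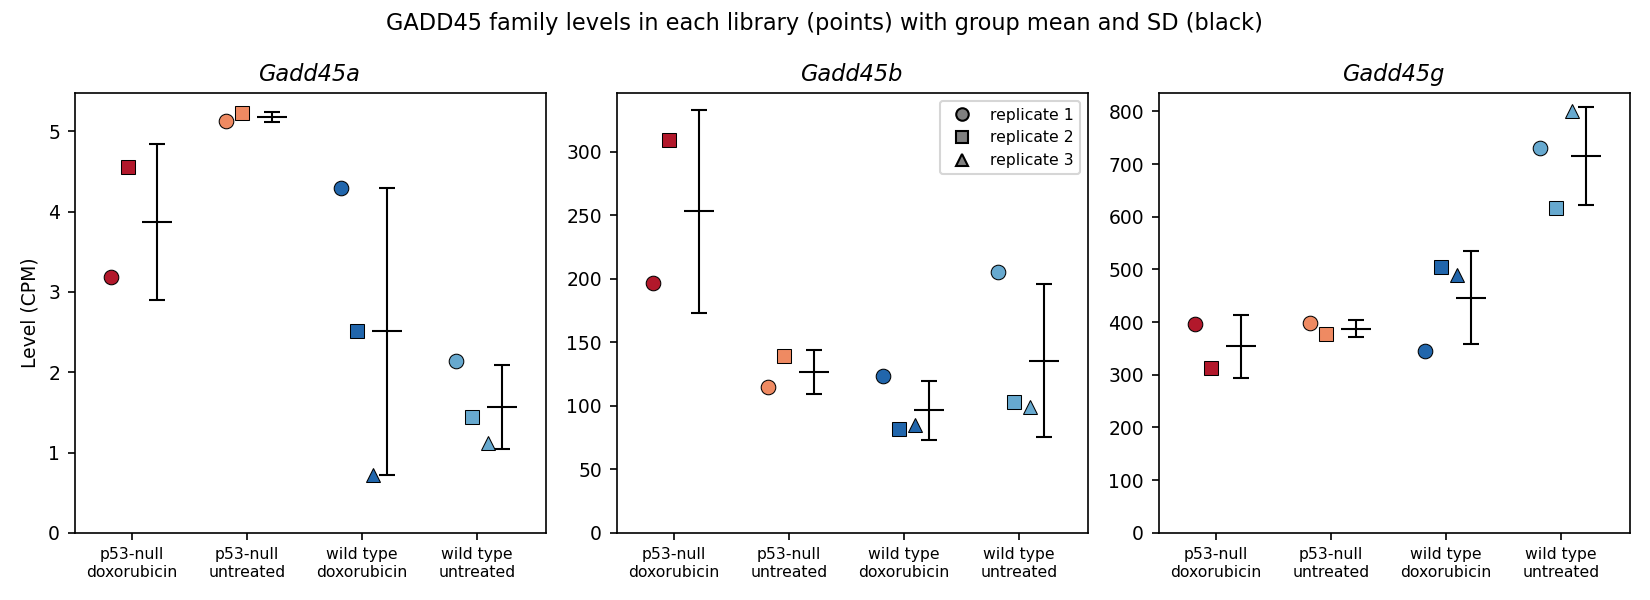
Levels in CPM (vertical axis, from 0) of Gadd45a, Gadd45b and Gadd45g in each library, by group. Points are libraries with the shape giving the replicate number, and black marks are the group mean and SD (n = 2 in p53-null and 3 in wild-type groups). Gadd45a is highest in untreated p53-null cells, Gadd45b in treated p53-null cells and Gadd45g in untreated wild-type cells.

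Gadd45g fell with doxorubicin in wild-type cells and was lower in untreated p53-null than in untreated wild-type cells. Treated wild-type libraries 1, 2 and 3 held 344, 505 and 489 CPM (3685, 5433 and 4757 reads), against 730, 616 and 800 CPM in untreated libraries. Every treated library lay below every untreated one. The log2 fold was -0.69 (SE 0.20, limma-trend adjusted p = 0.0499), which by p was the last of the 1406 genes past the threshold. The call was lost without untreated library 1 (log2 fold -0.65, adjusted p = 0.0917), 2 (-0.80, 0.0759) or 3 (-0.61, 0.183), treated library 1 (-0.51, 0.150) and untreated p53-null library 1 (-0.69, 0.0834). With the replicate number as a block it held (adjusted p = 0.0272). The summed level of 13 macrophage markers was also lower, at 47.0, 216 and 252 CPM in treated and 97.6, 504 and 558 CPM in untreated wild-type libraries. From 0 to 3 of these genes were at 0 in a library. Of the 10 tested, 0 passed in either direction, with a median log2 fold of -1.08 beside 0.05 for all genes. The part of these markers' cells in the fall of Gadd45g was not tested. Treated over untreated, Gadd45g stood at 0.472, 0.821 and 0.612 in libraries 1, 2 and 3.

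In p53-null cells Gadd45g held 397 and 312 CPM in treated libraries 1 and 2, against 399 and 376 CPM in untreated ones. The groups overlapped, and the log2 fold was -0.14 (SE 0.25, 95% confidence interval -0.69 to 0.41, adjusted p = 0.864). The p53-null minus wild-type response was 0.55 (SE 0.32, adjusted p = 0.340), so the responses were not shown to differ. Untreated p53-null cells had less Gadd45g than untreated wild-type cells, 399 and 376 CPM against 730, 616 and 800 CPM. Both p53-null libraries lay below all 3 wild-type ones. Macrophage markers also differed here, with summed levels of 115 and 99.7 CPM in untreated p53-null libraries, against 97.6, 504 and 558 CPM in untreated wild-type libraries. Of the 10 tested, 2 were lower in p53-null (Fcgr3 and Tyrobp) and 0 higher, with a median log2 fold of -1.21 beside 0.09 for all genes, and their part in the Gadd45g difference was not tested. The log2 fold of Gadd45g in p53-null over wild type was -0.87 (SE 0.23, limma-trend adjusted p = 0.0174), and it was lost without untreated p53-null library 1 (-0.91, 0.0955), 2 (-0.80, 0.105) and untreated wild-type library 3 (-0.79, 0.0656). With library size alone it was -0.48 (adjusted p = 0.0883), a scaling that moves the median of all genes in this comparison to 0.43, beside 0.09 with the scaling used. With treatment the fold was -0.32 (SE 0.23, adjusted p = 0.383), and p53-null libraries at 312 and 397 CPM overlapped wild-type ones at 344 to 505 CPM.

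Each member thus had its own order of group means. For Gadd45a the order of means from high to low was untreated p53-null (5.18 CPM), treated p53-null (3.87), treated wild type (2.51) and untreated wild type (1.57). Of its neighbours in that order, only the p53-null groups did not overlap, and their difference did not pass. For Gadd45b it was treated p53-null (253 CPM), untreated wild type (136), untreated p53-null (127) and treated wild type (96.4). Each group overlapped its neighbours in that order, treated p53-null and untreated wild type through library 1 of each (197 and 205 CPM). For Gadd45g it was untreated wild type (715 CPM), treated wild type (446), untreated p53-null (388) and treated p53-null (354), where untreated wild type lay above all libraries of its neighbour and each later pair of neighbours overlapped. Levels of one member are not set against those of another here.

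**Figure D2:**
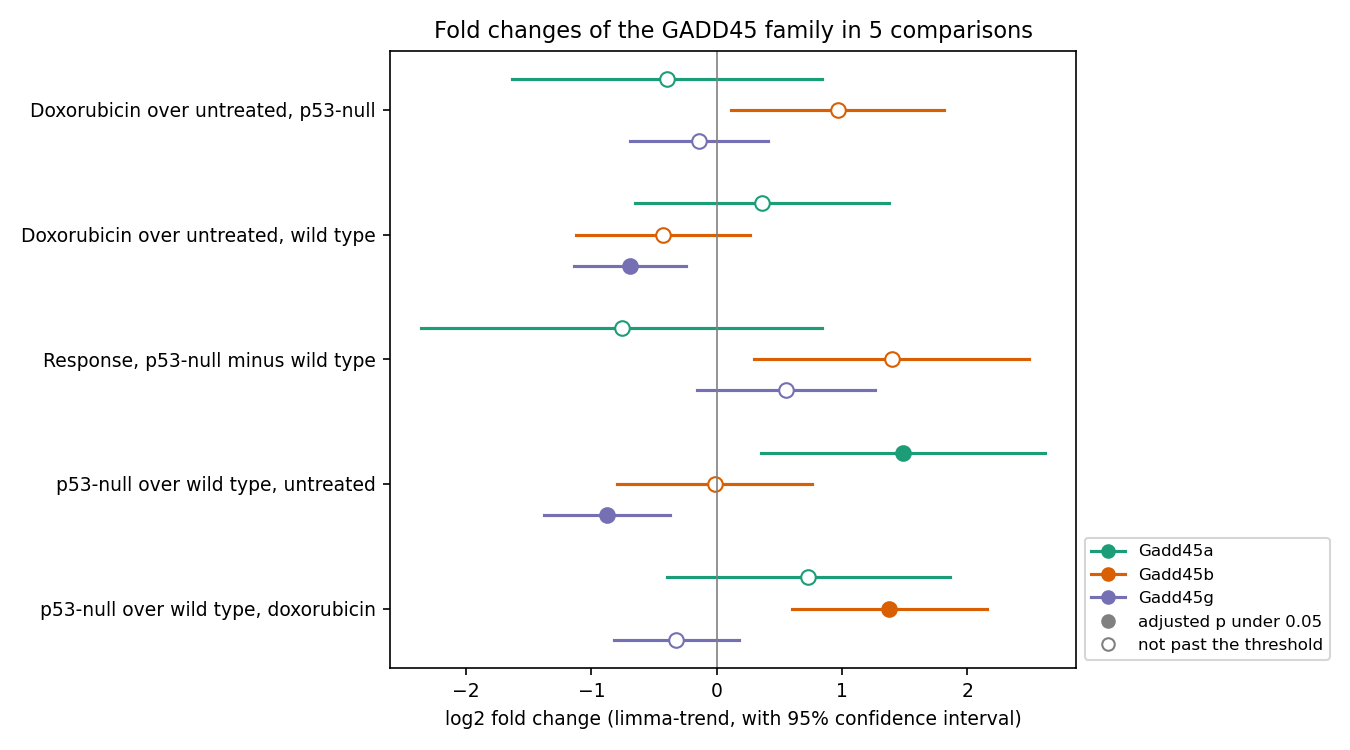
Log2 fold changes (horizontal axis) of the 3 genes in 5 comparisons, with 95% confidence intervals from limma-trend. Filled points passed adjusted p under 0.05 over all 11177 tested genes. The 4 filled points are Gadd45g in treated wild type, Gadd45a and Gadd45g between untreated genotypes, and Gadd45b between treated genotypes.

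All 3 members passed the low-level filter and were among the 11177 genes tested. With doxorubicin in wild type 1 member passed, lower, where 12.6% of all genes passed and 4.56% were lower. In p53-null cells 0 members passed, and 0% of all genes did. There, limma-trend gave 1255 of all genes an unadjusted p under 0.05 and limma-voom also called 0. In the difference of responses 0 members passed, against 2.34% of all genes in either direction and 0.447% higher. That difference had 2357 genes at an unadjusted p under 0.05, Gadd45b among them, and limma-voom called 205 genes and 0 members. Between untreated genotypes 2 members passed, 1 higher and 1 lower, where 33.1% of all genes passed, 20.4% higher and 12.8% lower. Between treated genotypes 1 passed, higher, against 12.1% of all genes in either direction and 5.24% higher. Groups that did not overlap were common among all genes. In treated against untreated wild type 1 member lay wholly lower, as did 12% of all genes. In p53-null cells 1 lay wholly higher and 1 wholly lower, as did 25.4% and 28.4% of all genes. Between untreated genotypes 1 lay higher and 1 lower, against 36.1% and 28.8%, and between treated genotypes 1 lay higher, against 21.8%. The comparisons share libraries (untreated wild type serves in both its response and the untreated comparison), so their values stand side by side and are not independent.

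A panel of 12 known p53 targets gives the scale of the p53 response in the same libraries. Of the 12, 12 rose in treated wild type, where 896 of the 11177 tested genes did. The panel was chosen with earlier results of these data known. Its median log2 fold was 2.39, beside 0.05 for all tested genes and -0.43 for the 3 GADD45 genes. The smallest rise on the panel was that of Bax, a pore-forming BCL-2 family gene, at 1.14 (adjusted p = 0.0340), above the fold of 0.36 for Gadd45a. Mdm2, encoding the ubiquitin ligase of p53, held 1381 CPM in treated and 189 CPM in untreated wild-type cells. In the p53-null minus wild-type response, 10 of the 12 were lower and 2 did not pass, where 211 of the 11177 tested genes were lower. The panel median was -2.56, beside -0.13 for all genes. The corresponding values of the family were -0.76 for Gadd45a, 1.39 for Gadd45b and 0.55 for Gadd45g, none of which passed.

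**Figure D3:**
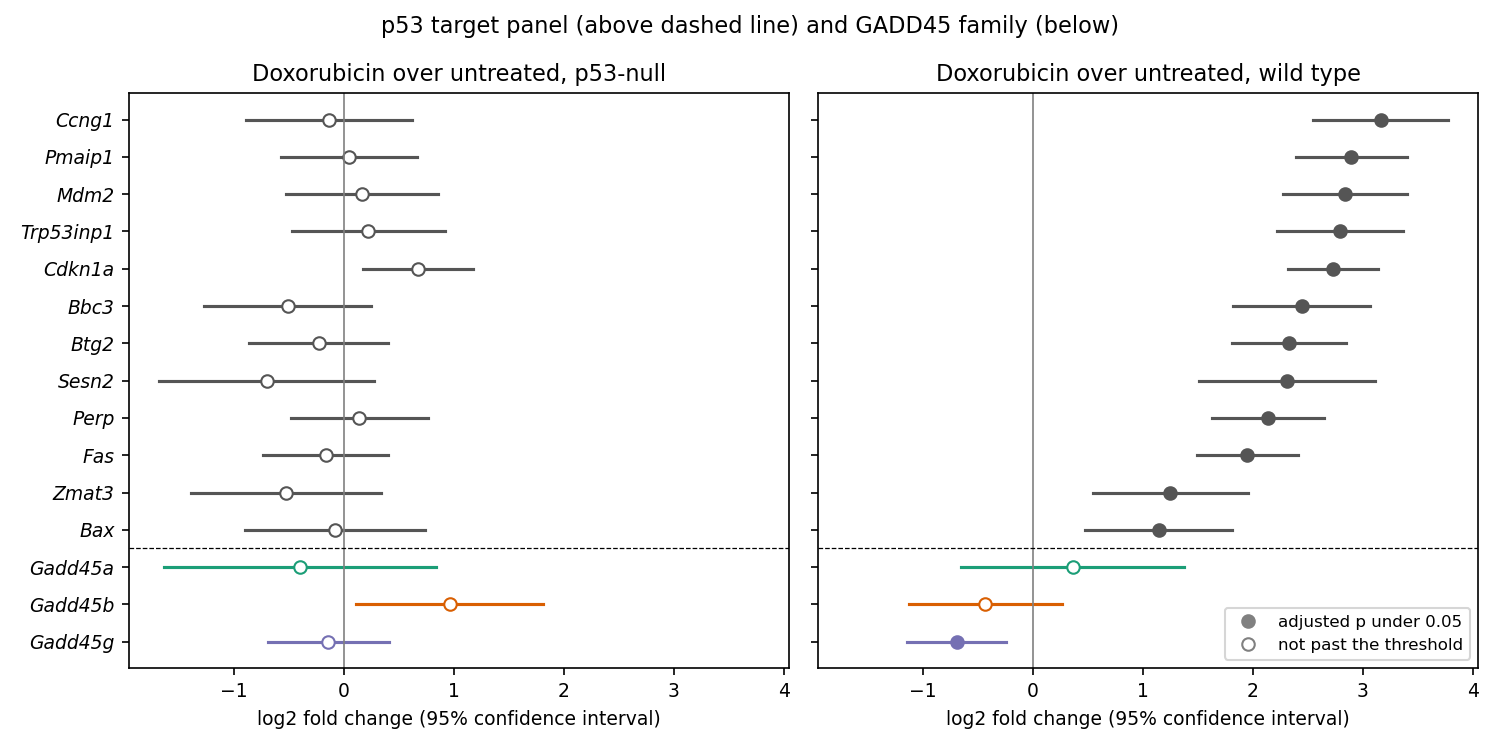
Log2 fold change with doxorubicin (horizontal axis, with 95% confidence intervals) in p53-null cells (left) and wild-type cells (right) for 12 p53 targets above the dashed line and the 3 GADD45 genes below it. Filled points passed adjusted p under 0.05. In wild type every panel gene is filled and positive, while Gadd45g is filled and negative at -0.69.

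The 2 other genes named for growth arrest and DNA damage are Ddit3, encoding the stress transcription factor CHOP, and Myd116, the older symbol of Ppp1r15a, which encodes the phosphatase subunit GADD34. Neither passed in any of the 5 comparisons. In wild type Ddit3 held 118 CPM in treated and 140 CPM in untreated cells, and Myd116 held 41.8 and 31.5 CPM. Gadd45gip1, encoding a mitochondrial protein named for binding GADD45G, did not pass in any comparison, with a log2 fold of -0.34 (SE 0.24) in wild type and 0.40 (SE 0.29) in p53-null cells.

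Of 14 reported binding partners, 2 rose and 2 fell with doxorubicin in wild type, where 12.6% of all genes passed and 4.56% were lower, and the median log2 fold was -0.19 beside 0.05 for all genes. Those that rose were Cdkn1a, at 2.73 (SE 0.18), and Ercc5, encoding the repair nuclease XPG, at 1.90 (SE 0.30, adjusted p = 0.00347). Those that fell were Map3k4 and Map2k7, both kinases of the stress cascade on which GADD45 proteins act. Map3k4 held 1.94 CPM (60 reads) in treated and 6.08 CPM (175 reads) in untreated wild-type cells, a log2 fold of -1.50 (SE 0.35, adjusted p = 0.0195). Map2k7 changed by -0.65 (SE 0.17, adjusted p = 0.0365). Between untreated genotypes 4 of the 14 were higher in p53-null and 4 lower, beside 20.4% and 12.8% of all genes. Those higher were the replication clamp gene Pcna at 1.24, Npm1, encoding nucleophosmin, at 1.81, the cyclin-dependent kinase gene Cdc2a (the older symbol of Cdk1) at 1.83, and Tdg, encoding a glycosylase of DNA demethylation, at 1.06. Those lower were Cdkn1a at -4.46, Mapk14, encoding p38 alpha, at -1.93, Ercc5 at -1.13 and Taf12, encoding a subunit of the general factor TFIID, at -1.12. Mapk14 held 18.5 CPM in untreated p53-null and 72.2 CPM in untreated wild-type cells.

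The p38 and JNK cascade had 18 of 19 listed genes tested, of which 1 rose and 4 fell in treated wild type, where 12.6% of all genes passed and 4.56% were lower (median log2 fold -0.003, beside 0.05 for all genes). Besides Map3k4 and Map2k7, the p38 genes Mapk12 and Mapk11 fell, with log2 folds of -1.59 (SE 0.25) and -1.29 (SE 0.25). Mapkapk3, encoding a kinase downstream of p38, rose by 2.46 (SE 0.27, adjusted p = 0.000379). It held 39.8 CPM in treated and 6.95 CPM in untreated wild-type cells. Its p53-null minus wild-type response was -1.94 (adjusted p = 0.0497). No member of the cascade passed in p53-null cells, where 0% of all genes did.

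Genes of entry into mitosis showed 2 of 11 tested members lower and 0 higher in treated wild type, where 4.56% of all genes were lower, and their median was -0.64 beside 0.05 for all genes. Cyclin B2 (Ccnb2) had a log2 fold of -2.04 (SE 0.34). Plk1, a mitotic kinase, had -1.65 (SE 0.43). In p53-null cells 0 of these 11 genes passed, as did 0% of all genes, and their median was -0.59 beside -0.07 for all genes. In the difference of responses 0 of the 11 passed, beside 2.34% of all genes. Among genes of active DNA demethylation 2 of 11 rose in treated wild type, Ercc5 and Apobec1, encoding a cytidine deaminase with 45 reads in treated and 6 in untreated wild-type cells, and 0 fell, beside 12.6% of all genes passing either way. Of 19 tested factors reported to act upstream of the family, 2 rose in treated wild type and 0 fell, beside the same 12.6%. Foxo3, encoding a forkhead factor reported to activate Gadd45a, rose by 1.55 (SE 0.29, adjusted p = 0.00792), and Cebpa by 1.11 (SE 0.26). Between untreated genotypes 5 of the 19 were higher in p53-null and 4 lower, beside 20.4% and 12.8% of all genes. Egr1, an early response factor, and Myc, reported to repress Gadd45a, were among the higher ones, at 2.45 (SE 0.38) and 2.84 (SE 0.39).

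Across the 10 libraries the members did not run in parallel. The Pearson correlation of log2 levels was 0.50 between Gadd45a and Gadd45b, -0.74 between Gadd45a and Gadd45g, and -0.37 between Gadd45b and Gadd45g, as descriptions over libraries that differ in genotype and depth. Among 5558 genes with an average log2 level of 3 or more, the 5 closest to Gadd45a were Gng5, Ccni, Ninl, Eif1ay and Tsnax, at r from 0.948 to 0.955. Those closest to Gadd45b were AA408296, Cecr5, Cdc123, Prpf40b and Psmg3, at 0.889 to 0.955. Those closest to Gadd45g were Sec24c, Gng8, St3gal1, Ppt2 and Mylk2, at 0.943 to 0.970. All of these were picked as the highest r, and how high the closest match of other genes runs was not counted. Gadd45a itself lay below the level cut in every library, so genes at its own level were not searched. Sec24c, encoding a coat protein of secretory vesicles, had group means of 101 CPM in treated and 102 CPM in untreated p53-null cells, and of 127 CPM in treated and 176 CPM in untreated wild-type cells.

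**Figure D4:**
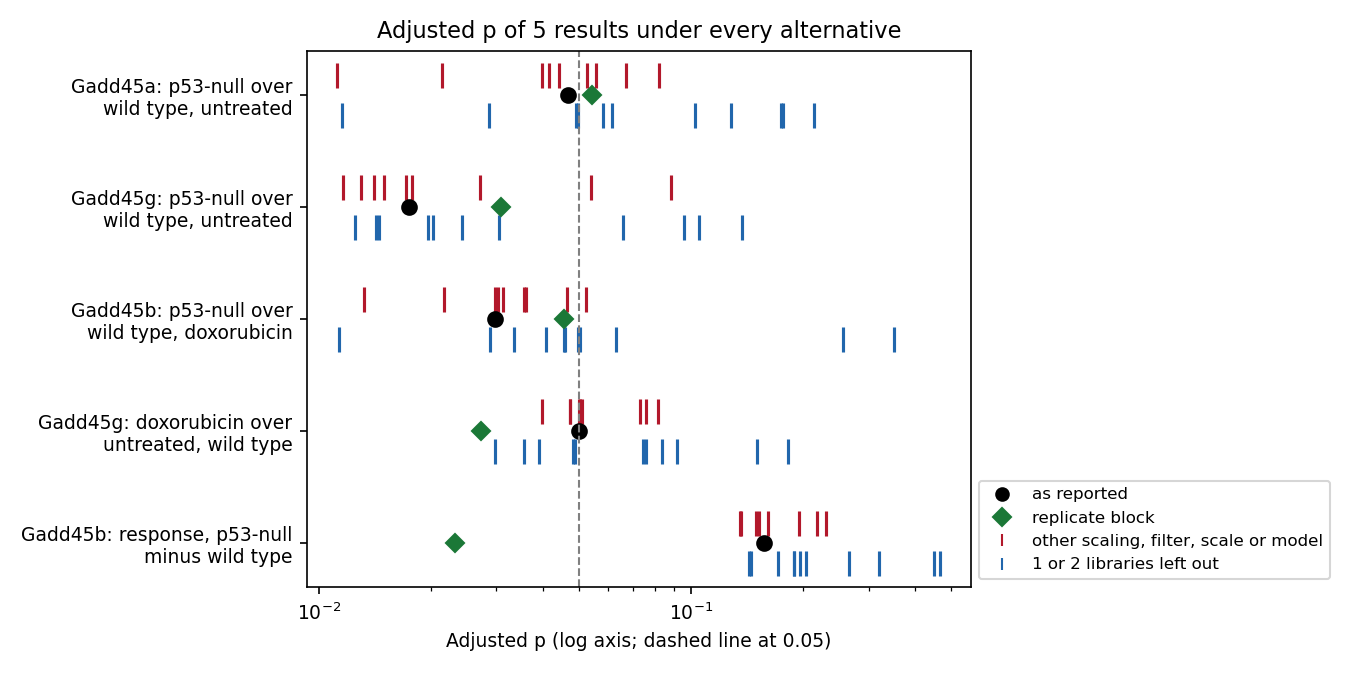
Adjusted p (horizontal log axis, dashed line at 0.05) of the 4 calls and of the Gadd45b difference of responses. Black points are the values as reported, green diamonds the replicate block, red ticks other scaling, filters, scales or models, and blue ticks fits without 1 or 2 libraries. Each of the 4 calls has ticks on both sides of the line, and only the replicate block takes the Gadd45b difference below it (0.0232).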

How the data were processed

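Each deposited RNA file holds 1 value per gene on a log-like scale, made by the authors with no file header. Its units are not log2 units at every level. For Gadd45g in untreated and treated wild-type library 1 the deposited values were 15.5 and 13.9, beside log2 levels of 9.51 and 8.43. DESeq and build mm9 are named, per the submitters' processing notes. Not given in the sources used here were aligner, strand and annotation. All libraries lay on 1 curve of reads over a library factor, which returned whole reads: 99.91% of 23356 distinct values above the starting run lay within 0.01 of a whole read, and the 22 others stood at 143049 reads or more. Recovered reads are computed values, so no count model was the main test.

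The 11177 genes reaching 1 CPM in 2 or more libraries were tested. Scaling used TMM (trims of 30% and 5%). The model was limma-trend (limma 3.58.1, R 4.3.3) on log2(CPM + 0.5), with 1 mean per group over 10 libraries. On this scale, changes of genes near 0.5 CPM come out too small. All tests were two-sided, with Benjamini-Hochberg adjustment over all tested genes and a threshold of 0.05. Recovery and tests were checked on simulated data. Alternatives covered scaling, added CPM, filter, the deposited values, groups fitted, limma-voom, a replicate block and left-out libraries.

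Wild-type libraries of the same number deviated together (correlations of deviations from the group mean of 0.58, 0.34 and 0.61). The numbers were taken to pair libraries in the ratios by number and in the replicate block only. The main test had no replicate block, so its p-values leave this pairing out. In p53-null cells the correlation was 0.38 with 2 numbers. The members, lists and motifs were chosen with earlier results of these data known. Named genes are the members, neighbours of the family, up to 4 called genes per list, and the 5 most alike genes. Older symbols were matched through RefSeq. Peaks were not used.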

Additional observations from a re-analysis of the deposited data

Results flagged for a closer look

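The doxorubicin response of Gadd45b had opposite signs in the genotypes in every numbered pair of libraries. It was higher in 2 of 2 treated p53-null libraries and lower in 3 of 3 treated wild-type libraries, each against the untreated library of its number. The p53-null minus wild-type response was 1.395 on the log2 scale (limma-trend adjusted p = 0.157 over all genes, and adjusted p = 0.0232 with the replicate block). Adjusted p ran from 0.0232 to 0.468 over its alternatives. The rule that flagged this result used the pattern of pairs as well as adjusted p, so the pattern adds no support. How many of all genes share the pattern was not counted. In p53-null cells alone 25.4% of all genes lay wholly higher with treatment.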

How the results depend on the processing

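Of 312 values of the 15 member results under 21 alternatives, 268 kept direction and side of the threshold, 35 lost a call, 1 gained one and 8 changed sign. The cause was not tested. Gadd45a between untreated genotypes lost its call with median-of-ratios scaling (1.40), the values as deposited (1.60 in deposited units, not log2), 0.25 CPM added (1.62), no filter (1.49) and the replicate block (1.14). Gadd45g in treated wild type lost it with upper quartile scaling (-0.67), 0.25 or 1 CPM added (-0.69 each), no filter (-0.70), only the wild-type groups (-0.73) and limma-voom (-0.69). Gadd45g between untreated genotypes lost it with library size alone (-0.48) and upper quartile scaling (-0.69), and Gadd45b between treated genotypes with no filter (1.43), where more genes are tested. Gadd45b between untreated genotypes changed sign with library size alone (0.38), upper quartile scaling (0.16) and only the groups compared (0.030), and library size alone moved the median of all genes there to 0.43. The replicate block gave Gadd45b a call in the difference of responses (1.39), so 1 member was called there. Apart from this gain and the loss for Gadd45a between untreated genotypes, it changed no call of a member.

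Without 1 library each, log2 folds ran from 1.33 to 1.66 for Gadd45a, -0.98 to -0.79 for Gadd45g and -0.21 to 0.29 for Gadd45b between untreated genotypes, from 1.11 to 1.76 for Gadd45b between treated genotypes, and from -0.84 to -0.51 for Gadd45g and -0.077 to 0.85 for Gadd45a in treated wild type. Without both p53-null libraries numbered 2, the 4 calls were lost (1.52, -0.78, 1.11 and -0.74, in the order Gadd45a and Gadd45g untreated, Gadd45b treated, Gadd45g in wild type). The lone p53-null library of each group is then assumed to vary like the others. Members called were 0 or 1 in treated wild type and between treated genotypes, and 0, 1 or 2 between untreated genotypes. Gadd45a had 7 to 46 reads in a wild-type library, and the part of depth in its results was not tested.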
